A study of Mus musculus with 2 samples.

Results

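Corticosteroid signalling was followed through 7 genes in the mouse endometrium on day 3 of pregnancy. They were the enzymes Hsd11b2 and Hsd11b1, the receptors Nr3c1 and Nr3c2, and the response genes Sgk1, Fkbp5 and Tsc22d3. These 7 of the 19070 genes in the count matrices were chosen by symbol, and every one of them was present in both matrices. Chromosomes and positions given for them are those of GENCODE M21 on GRCm38.p6, an annotation that may not be the one the submitters used.

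Glucocorticoids enter cells freely and bind the glucocorticoid receptor, encoded by Nr3c1, and also the mineralocorticoid receptor, encoded by Nr3c2. The 2 isoforms of 11-beta-hydroxysteroid dehydrogenase act before the receptors: the product of Hsd11b2 oxidises corticosterone to the inactive 11-dehydrocorticosterone, and that of Hsd11b1 mainly carries out the reverse reaction. Ligand-bound receptors raise transcription of Sgk1, a kinase that promotes sodium uptake through epithelial channels, of Fkbp5, a cochaperone that lowers the receptor's affinity for hormone, and of Tsc22d3, which encodes the anti-inflammatory protein GILZ. None of these response genes answers to corticosteroids alone, since the progesterone receptor binds closely related DNA sites and is active in the early pregnant uterus.

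The series compared 1 library from Erbb3 f/f females, the genotype labelled as control, with 1 library from Erbb3 d/d females, described by the submitters as lacking Erbb3 in the stroma. The f/f library is called the control in what follows. Neither the Cre driver nor the number of mice per library is stated in the labels. Endometrium was fixed, dissociated and assayed by 10x Flex, in which probe pairs hybridised to RNA are counted as unique molecular identifiers (UMIs). Because each genotype is a single library, no test between genotypes was possible. Every interval below is a 95% interval for counting error only, without the variation between mice.

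After filtering, 5502 control cells with a median of 809 UMIs and 1825 d/d cells with a median of 763 remained. Cells were assigned to classes by marker UMIs. The epithelial gate held 1895 control and 727 d/d cells, the stromal gate 1428 and 314, the endothelial gate 97 and 23, and the myeloid gate 43 and 12. The mesothelial (10 and 1), muscle and pericyte (17 and 3) and lymphoid gates (0 and 2) were smaller still and held at most 2 UMIs of any member in a library, while 36.6% of control and 40.7% of d/d cells stayed ungated. Between 27.8% and 44.7% of the cells in the epithelial and stromal gates lay near a gate threshold (3 or 4 marker UMIs, or a marker share under 75%), and the median cell carried 0 UMIs of other classes' markers in the epithelial gate and 1 in the stromal gate. RNA of the other compartment was measurable in both gates: 10 epithelial genes outside the marker set reached 15.9% (control) and 20.9% (d/d) of their epithelial level in the stromal gate, and 10 such stromal genes 8.13% and 10.1% of theirs in the epithelial gate. The median mitochondrial share of stromal gate cells was 1.26% in the control and 3.04% in d/d. Erbb3 itself had 12 control and 2 d/d UMIs in the stromal gate, a log2 ratio of d/d over control of -0.22 (-3.42 to 1.95), so the deletion could not be checked at this depth. In the epithelial gate Erbb3 had 159 control and 34 d/d UMIs, a ratio of -0.68 (-1.26 to -0.14). Whether its few stromal UMIs were carried over from the epithelium was not tested.

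Hsd11b2 (chromosome 8, 105518746 to 105523988) was a stromal transcript in both genotypes. Its 594 UMIs in the control stromal gate gave 433 CPM (399 to 469), where CPM is the UMIs of a gene relative to all UMIs of the gate, scaled to a common total, and its 121 UMIs in d/d gave 455 CPM (378 to 544). In the epithelial gate it had 47 UMIs in the control and 11 in d/d, 23.0 and 15.7 CPM. The stromal level was thus 18.8 times the epithelial one in the control (14.0 to 25.9) and 29.0 times in d/d (15.7 to 59.7). The epithelial level was 5.31% of the stromal one in the control and 3.45% in d/d, below the summed share of the 10 stromal genes used to gauge carry-over. Whether any Hsd11b2 is made in the epithelium could therefore not be told apart from carried-over RNA.

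The share of cells with at least 1 Hsd11b2 UMI gave the same picture. It was 27.3% of control and 27.1% of d/d stromal gate cells, with median depths of 760 and 708 UMIs, against 2.32% and 1.24% of epithelial gate cells, with median depths of 928 and 862. After each cell was thinned to 500 UMIs, the shares were 17.8% and 20.1% in stromal cells and 1.11% and 0.688% in epithelial cells. Endothelial gate cells had 2 Hsd11b2 UMIs in the control and 0 in d/d, and myeloid gate cells had none in either library. In all, 68.6% of its UMIs fell in the stromal gate.

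**Figure D1:**
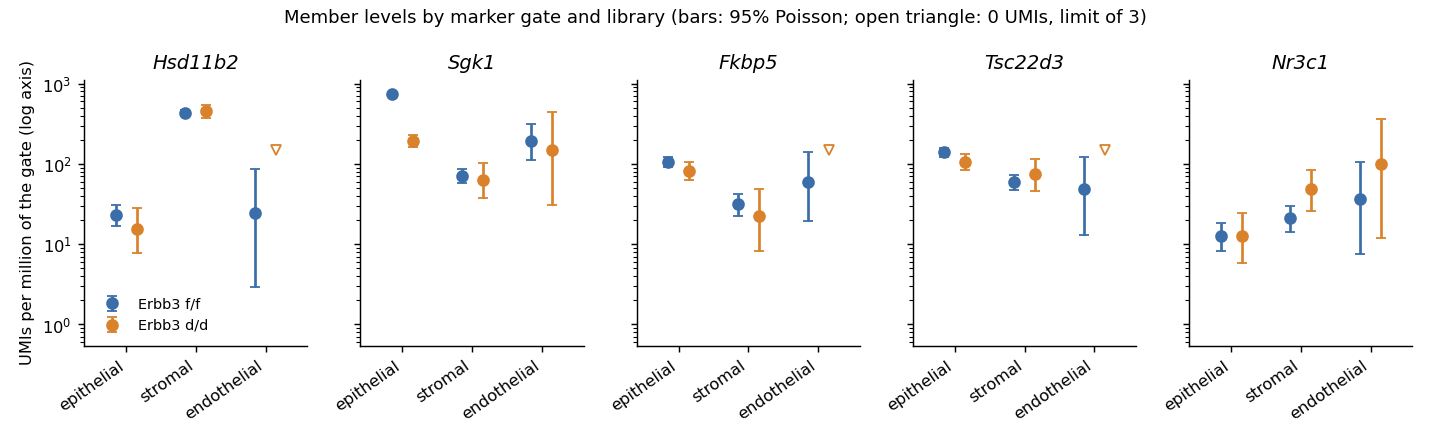
CPM of each gate (log axis) for 5 genes in epithelial, stromal and endothelial gate cells of the f/f (blue) and d/d (orange) libraries, with 95% Poisson intervals; open triangles mark 0 UMIs and stand at the level of 3 UMIs. Hsd11b2 stands at 433 and 455 CPM in the stromal gate, and Sgk1 at 753 in f/f against 194 in d/d in the epithelial gate. The d/d endothelial gate holds 23 cells only.

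Between genotypes the stromal level of Hsd11b2 differed by a log2 ratio of 0.07 (-0.22 to 0.36). Of the 4856 genes counted in the stromal gate, each with at least 100 UMIs over both libraries, 1.19% were at least 2-fold higher in d/d and 2.88% at least 2-fold lower, and none of the 3 corticosteroid genes counted there was among them. The median of the 3 was 0.07, and that of all counted genes -0.09. Of the 4856 genes, 79.7% had an interval that included 0. The Hsd11b2 ratio moved with the mitochondrial share: among stromal gate cells with at most 2% mitochondrial UMIs it was 0.58 (0.16 to 0.97). Some stromal gate cells had epithelial features: 238 control and 60 d/d cells fell in a subcluster led by Mecom and Hdc and also by Tmprss2 and Enpp3, with Hsd11b2 at 249 and 322 CPM. In stromal gate cells that also lay in a stromal cluster, the ratio was 0.22 (-0.10 to 0.52). In the whole libraries Hsd11b2 stood at 153.5 CPM in the control and 115 in d/d, a log2 ratio of -0.42 (-0.65 to -0.19), while stromal gate cells were 26.0% of the control and 17.2% of the d/d cells.

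Within the stroma, cells were divided by 2 gene pairs, Pth1r with Scube1 and Col6a4 with Adam12, chosen with earlier results of these data known. Whether each pair marks cells of like kind in both libraries was not tested. Hsd11b2 stood at 496 CPM in Pth1r/Scube1 cells of the control (272 UMIs in 531 cells) and at 635 in those of d/d (25 UMIs in 49 cells). In Col6a4/Adam12 cells it stood at 392 (171 UMIs in 419 cells) and 448 (78 UMIs in 199 cells), and in cells of neither kind at 389 and 343. In the control the Col6a4/Adam12 cells were lower than the Pth1r/Scube1 cells by a log2 difference of -0.34 (-0.62 to -0.06). In d/d the same difference was -0.50 (-1.17 to 0.21), an interval that includes 0. By stromal subclusters in place of the gene pairs, the difference was -0.21 (-0.46 to 0.03) in the control and -0.93 (-1.47 to -0.37) in d/d, so which library's interval excludes 0 depends on how the subtypes are drawn. Between genotypes the ratio was 0.36 (-0.30 to 0.95) in Pth1r/Scube1 and 0.19 (-0.21 to 0.59) in Col6a4/Adam12 cells, and both intervals include 0. For the Pth1r/Scube1 subtype it was 0.57 (0.08 to 1.03) by stromal subclusters, an interval above 0, and -0.21 (-1.14 to 0.60) with at least 2 subtype UMIs. The subclusters matched the gene pairs only in part. Counted as Pth1r/Scube1 was a subcluster led by Myrf and Cldn15, with that pair at 466 CPM and the other at 505. Counted as Col6a4/Adam12 was the subcluster led by Mecom and Hdc, with that pair at 701 CPM and the other at 666.

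Clusters of whole-transcriptome profiles, built without the 7 genes, divided the stroma differently. In cluster 8, led by Col7a1 and Pth1r, Hsd11b2 stood at 472 CPM in the control (280 UMIs) and at 737 in d/d (54 UMIs), a log2 ratio of 0.64 (0.20 to 1.07). In cluster 2, led by Col6a4 and Myh11, it stood at 477 (308 UMIs) and 344 (57 UMIs), a ratio of -0.47 (-0.90 to -0.06). The control levels were alike, and the d/d levels lay apart on either side of them. The median mitochondrial share was 0.533% in cluster 8 and 4.36% in cluster 2, and its part in this result was not tested.

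**Figure D2:**
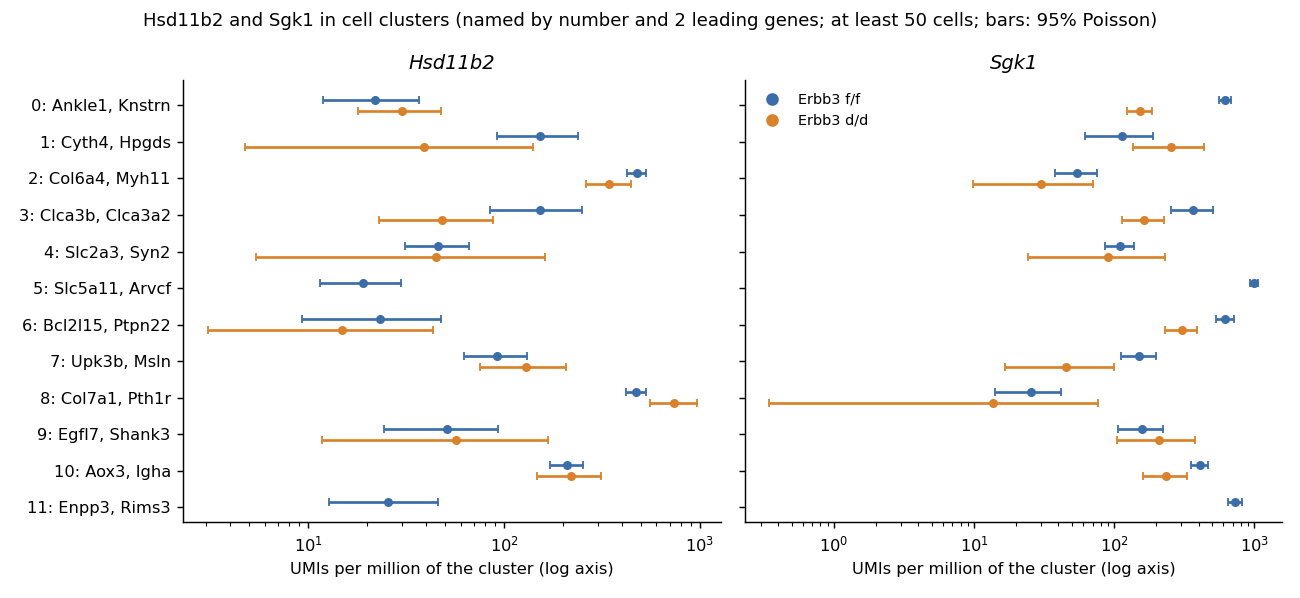
Hsd11b2 (left) and Sgk1 (right) in CPM (log axis) in each cluster, for groups of at least 50 cells in the f/f (blue) and d/d (orange) libraries, with 95% Poisson intervals; clusters are named by number and 2 leading genes, and d/d points are missing for clusters 5 and 11, which hold 27 and 12 d/d cells. Hsd11b2 is highest in clusters 2 and 8, and Sgk1 in cluster 5 of f/f, at 997 CPM.

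Hsd11b1 (chromosome 1, 193221640 to 193264045), which regenerates active hormone, was almost undetected. It had 9 UMIs among the 5516347 of the control cells and 6 among the 1704041 of the d/d cells, or 1.63 and 3.52 CPM. The stromal gate held 2 and 1 of these UMIs and the epithelial gate 3 and 3. No comparison between genotypes or compartments was possible for it at this depth.

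Of the receptors, Nr3c1 (chromosome 18, 39410545 to 39519421) was detected at a low level across classes. It had 111 UMIs in the control and 59 in d/d over all cells, 20.1 (16.6 to 24.2) and 34.6 (26.4 to 44.7) CPM, a log2 ratio of 0.78 (0.30 to 1.25). In the stromal gate it had 29 UMIs in the control and 13 in d/d, 21.1 and 48.9 CPM, a ratio of 1.21 (0.14 to 2.20). That count is below the minimum of 100 UMIs, so Nr3c1 does not enter the share of genes past 2-fold. Over 13 alternatives the stromal ratio ran from 0.91 to 1.73, with its interval above 0 in 8 of them, and it was 1.36 (-0.73 to 3.08) in cells with at most 2% mitochondrial UMIs. Of the genes counted in the stromal gate, 79.7% had an interval that included 0.

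In the epithelial gate Nr3c1 had 26 and 9 UMIs, 12.7 and 12.8 CPM, a ratio of 0.01. Ungated cells held 49 and 35 of its UMIs, 25.0 and 49.9 CPM, with a ratio of 0.998 (0.33 to 1.65). The change in the epithelial gate was lower than in the stromal gate by -1.20 (-2.64 to 0.25), an interval that includes 0. The epithelial value depended on how cells were classed: with classes taken from clusters, which give 37 and 27 UMIs, it was 1.07 (0.29 to 1.82). In the epithelial cluster 6, led by Bcl2l15 and Ptpn22, Nr3c1 had 3 and 9 UMIs, 9.91 and 44.6 CPM, a ratio of 2.17 (0.17 to 4.69). Among control clusters Nr3c1 was highest in cluster 1, led by Cyth4 and Hpgds, at 72.4 CPM, and in cluster 7, led by Upk3b and Msln, at 70.5. In d/d those clusters stood at 39.0 and 68.2, from 2 and 9 UMIs.

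Nr3c2 (chromosome 8, 76898083 to 77245012), which binds aldosterone as well as glucocorticoids, had 28 UMIs in the control and 10 in d/d, 5.08 and 5.87 CPM. Its log2 ratio was 0.21 (-0.997 to 1.29). It had 4 UMIs in each library in the stromal gate, and 5 and 2 in the epithelial gate. The sizes of the control and d/d stromal gates make 4 UMIs a level of 2.92 and 15.1 CPM, with a ratio of 2.37 whose interval included 0.

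Sgk1 (chromosome 10, 21882184 to 21999903) was the response gene that differed most between the libraries. In the epithelial gate it had 1541 UMIs in the control, 753 CPM (716 to 792), and 136 UMIs in d/d, 194 CPM (163 to 229). The d/d level was lower by a log2 ratio of -1.96 (-2.22 to -1.70), which is 3.88-fold (3.26 to 4.66). Of the 6465 genes counted in the epithelial gate, 4.49% were at least 2-fold lower in d/d and 4.76% at least 2-fold higher; of the 3 corticosteroid genes counted there, Sgk1 was the 1 at least 2-fold lower and none was 2-fold higher. Only 46 of the 6465 genes (0.712%) had a lower ratio than Sgk1.

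One of the 6 RefSeq promoter windows of Sgk1 holds the palindrome to which the glucocorticoid receptor binds as a dimer, and it is shown here because Sgk1 had the largest change among the counted members. The 250 bases before that start, chr10:21993640-21993889 on the plus strand of GRCm38.p6, overlap no exon of GENCODE M21. Capitals mark the match to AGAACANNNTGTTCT, which reads alike on both strands.
Sgk1: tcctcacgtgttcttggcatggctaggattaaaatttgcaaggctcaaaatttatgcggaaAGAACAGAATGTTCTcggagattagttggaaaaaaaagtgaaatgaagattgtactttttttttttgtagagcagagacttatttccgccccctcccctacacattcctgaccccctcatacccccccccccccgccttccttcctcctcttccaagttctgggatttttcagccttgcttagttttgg
The match spans 21993701 to 21993715, begins 189 bases before the start at 21993890, and lies 965 bases before another annotated start at 21994666. The same letters occurred in 3 of the 32851 RefSeq windows of 250 bases before to 50 after a start (0.00913%). A single arm of the motif, AGAACA or TGTTCT, whether or not it is part of the palindrome, occurred in 19.0% of windows. It was found in 3 of the 6 Sgk1 windows, in 1 of the 3 for Tsc22d3, and in none for Fkbp5, Hsd11b1 or Nr3c2, which have 1 window each. Nr3c1 was left out of this count, and Hsd11b2 had no window. A match describes letters and not binding, and which of the Sgk1 starts was used in these cells is not measured by the probes.

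The lower Sgk1 level was also visible in the share of cells with a UMI. At least 1 Sgk1 UMI was found in 44.6% of control epithelial gate cells but in 14.9% of d/d cells, and after thinning to 500 UMIs in 27.5% and 9.08%. In the stromal gate the shares were 5.67% and 4.78% before thinning and 3.38% and 2.23% after. Of the control epithelial gate cells, 11.8% had 2 Sgk1 UMIs, 5.22% had 3, and 4.06% had 4 or more. Of the d/d cells, 3.16% had 2, and 1 cell each had 3 and 4 or more. The share with 1 UMI was also lower in d/d, at 11.4% against 23.5%. With means of 0.813 UMIs per control cell and 0.187 per d/d cell, such shares largely follow the mean. They do not show whether every cell or only some cells had less Sgk1.

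**Figure D3:**
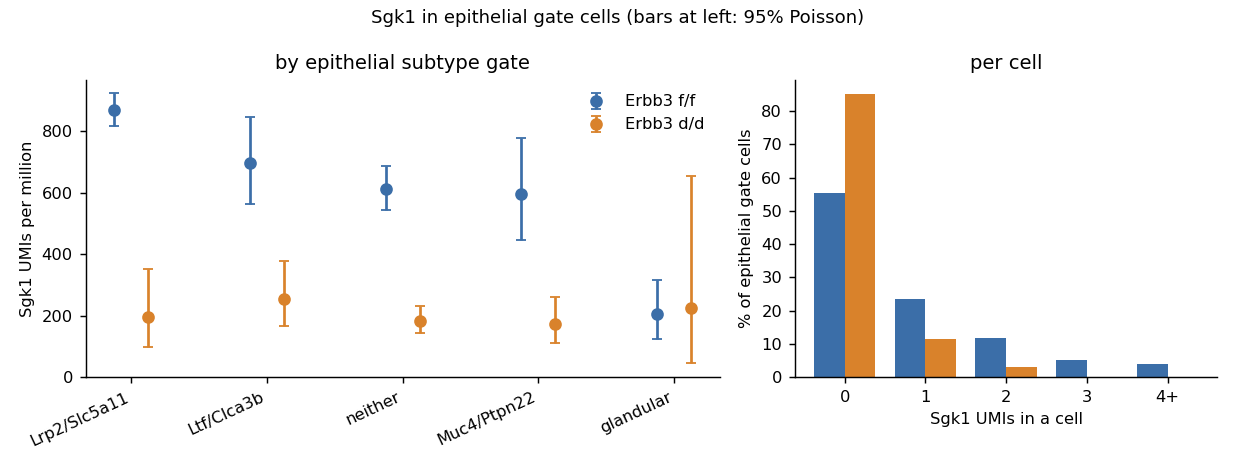
Left, Sgk1 in CPM in 5 epithelial subtype gates of the f/f (blue) and d/d (orange) libraries, with 95% Poisson intervals; right, percent of epithelial gate cells by number of Sgk1 UMIs. The d/d level is below the f/f level in 4 subtypes and not in glandular cells, which are 87 and 13, and 85.1% of d/d cells against 55.4% of f/f cells have no Sgk1 UMI.

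In the stromal gate Sgk1 had 98 UMIs in the control and 17 in d/d, 71.4 and 64.0 CPM, a log2 ratio of -0.16 (-0.996 to 0.59). The change in the epithelial gate was lower than that in the stromal gate by -1.80 (-2.58 to -1.01). The stromal level was 9.48% of the epithelial one in the control, which is below the summed share of carried-over epithelial genes, and 33.0% in d/d, which is above it. Single epithelial genes ranged from 10.4% to 26.1% of their own level in the control and from 2.69% to 45.4% in d/d, so the d/d value lies within that range. A stromal source of Sgk1 could therefore not be told apart from carried-over RNA in either library. Of the Sgk1 UMIs in the stromal gate, 57 in the control and 10 in d/d lay in the subcluster led by Mecom and Hdc. That subcluster had epithelial features, and Sgk1 stood there at 205 and 169 CPM. The ratio in the stromal gate thus rests largely on those cells. Endothelial gate cells had 16 UMIs in the control, 193 CPM (111 to 314), and 3 in d/d, 150.1 CPM.

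The epithelial cells were further divided by marker pairs chosen with results of these data known. In the control, Sgk1 stood at 871 CPM in Lrp2/Slc5a11 cells, 696 in Ltf/Clca3b cells, 613 in cells of neither kind, 595 in Muc4/Ptpn22 cells and 205 in glandular cells. Intervals of neighbours in that order overlapped down to Muc4/Ptpn22 cells, and the interval of glandular cells lay below all others. Lrp2/Slc5a11 cells were above Ltf/Clca3b cells by a log2 difference of 0.32 (0.02 to 0.64). Lrp2/Slc5a11 cells were 4.25-fold above glandular cells in the control, a log2 difference of 2.09 (1.45 to 2.80).

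In d/d the same 5 groups stood at 196, 255, 184, 174 and 224 CPM, and all of their intervals overlapped. The log2 ratio between genotypes was -2.15 (-3.15 to -1.30) in Lrp2/Slc5a11 cells, although these were 1086 cells in the control and 57 in d/d. It was -1.77 (-2.55 to -1.04) in Muc4/Ptpn22 cells, -1.45 (-2.14 to -0.80) in Ltf/Clca3b cells and -1.74 (-2.12 to -1.36) in cells of neither kind. In glandular cells, with 20 UMIs in the control and 3 in d/d, it was 0.13 (-2.27 to 1.88). Where Ltf/Clca3b cells had to carry at least 2 UMIs of those genes, their ratio was -0.65 (-1.65 to 0.24), from 54 UMIs in the control and 13 in d/d. This interval includes 0 and overlaps that of the looser gate. Whether the ratios of the looser and stricter gates differ was not tested.

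Outside the Lrp2/Slc5a11 gate the remaining epithelial cells had Sgk1 at 576 CPM in the control and 194 in d/d, a log2 ratio of -1.57 (-1.87 to -1.29). That gate took out 1086 control but 57 d/d cells by the UMIs of its own marker genes. Whether the cells within it, or those left outside, are of like kind in both libraries was not tested. The difference was also seen on either side of proliferation: cells without a UMI of 8 proliferation genes stood at 787 and 217 CPM, a ratio of -1.86 (-2.32 to -1.44). Cells with at least 1 such UMI stood at 687 and 184, a ratio of -1.90 (-2.25 to -1.57).

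Among the epithelial clusters Sgk1 was again lower in d/d, though in cluster 4 the interval of the ratio included 0. In cluster 5, led by Slc5a11 and Arvcf, it stood at 997 CPM in the control and 93.0 in d/d, the latter from 2 UMIs in 27 cells. In cluster 0, led by mitotic genes such as Ankle1 and Knstrn, it stood at 614 CPM in the control and 153 in d/d. In cluster 6, led by Bcl2l15 and Ptpn22, it stood at 618 and 302. In cluster 3, led by Clca3b, it stood at 364 and 163. In cluster 11, led by Enpp3 and Rims3, it stood at 727 and 301, the latter from 5 UMIs in 12 cells. Cluster 4, led by Slc2a3 and Syn2, was low in both libraries, at 109 (71 UMIs) and 89.6 (4 UMIs), a ratio of -0.29 (-2.20 to 1.13). Outside the epithelium, Sgk1 was also lower in cluster 7, led by the mesothelial genes Upk3b and Msln, at 150.2 (49 UMIs) and 45.5 (6 UMIs), a ratio of -1.72 (-3.24 to -0.50). It was lower as well in cluster 10, led by Aox3 and Igha, at 409 (199 UMIs) and 234 (32 UMIs), a ratio of -0.80 (-1.39 to -0.26). Of the 284 control and 76 d/d cells of cluster 10, only 127 were gated, 93 of them stromal. Its median depth was 1407 UMIs, and its control level was above the 71.4 CPM of the stromal gate. Whether cluster 10 holds epithelial RNA was not tested. In cluster 1, led by Cyth4 and Hpgds, Sgk1 stood at 113 (14 UMIs) and 254 (13 UMIs), a ratio of 1.17 (-0.04 to 2.37).

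**Figure D4:**
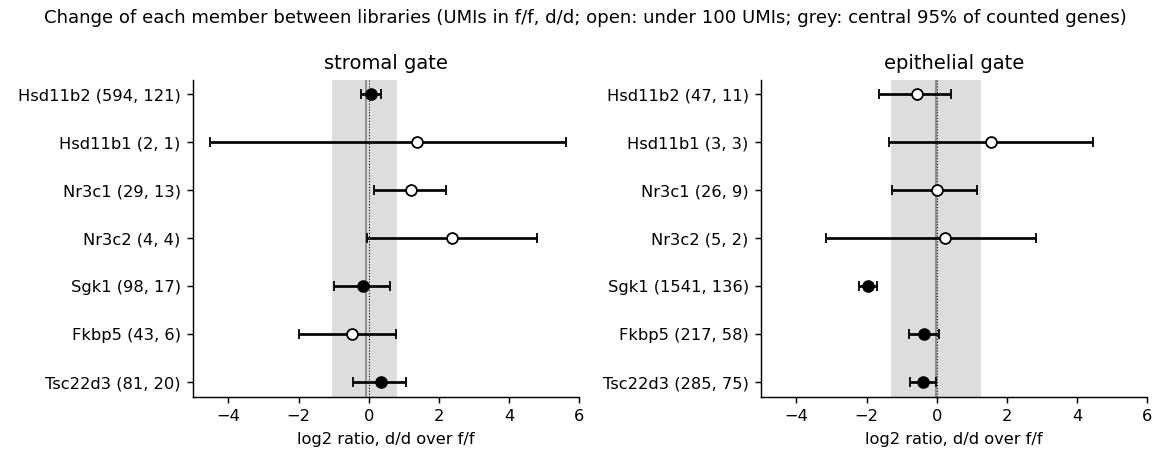
Log2 ratio of d/d over control for the 7 genes in the stromal (left) and epithelial (right) gates, with 95% counting intervals and the UMIs of each library after each name; open points have under 100 UMIs, the grey band holds the central 95% of counted genes, and the grey line is their median. Sgk1 in the epithelial gate, at -1.96, lies outside the band, and Hsd11b2 in the stromal gate, at 0.07, lies near its centre.

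Fkbp5 (chromosome 17, 28398753 to 28486149) was also more abundant in the epithelium, with a small difference between genotypes. It had 217 UMIs in the control epithelial gate and 58 in d/d, 106 and 82.7 CPM, a log2 ratio of -0.36 (-0.80 to 0.06). In the stromal gate it had 43 and 6 UMIs, 31.3 and 22.6 CPM, a ratio of -0.47. The epithelial level was 3.38 times the stromal one in the control (2.43 to 4.81) and 3.66 times in d/d (1.58 to 10.4). Over all cells it stood at 77.6 and 71.6 CPM, so in neither gate nor the whole library did the genotypes differ beyond counting error.

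Tsc22d3 (chromosome X, 140539528 to 140600522) had an epithelial level 2.36 times the stromal one in the control (1.84 to 3.06). In d/d it was 1.42 times the stromal level (0.86 to 2.46). The epithelial gate had 285 UMIs in the control and 75 in d/d, 139 and 107 CPM, a log2 ratio of -0.38 (-0.77 to -0.01). Of all genes counted in the epithelial gate, 58.8% had an interval that included 0. The stromal gate had 81 and 20 UMIs, 59.0 and 75.2 CPM, a ratio of 0.35 (-0.43 to 1.07). The epithelial change was lower than the stromal one by -0.73 (-1.53 to 0.06), an interval that includes 0. Among epithelial gate cells with no proliferation UMI the ratio was -0.89 (-1.70 to -0.17), and among those with at least 1 it was -0.09 (-0.60 to 0.40). Clusters 1 and 7, the clusters led by Cyth4 and by Upk3b, had 161 and 165.5 CPM in the control, close to the 166 of cluster 5 led by Slc5a11.

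No joint variation of Sgk1 with Fkbp5 or Tsc22d3 from cell to cell was detectable at this depth. In control epithelial gate cells with a Sgk1 UMI, Fkbp5 stood at 104 CPM against 108 in cells without one, a log2 difference of -0.06 (-0.45 to 0.34). Tsc22d3 stood at 142 and 137, a difference of 0.05 (-0.29 to 0.40). In the stroma Nr3c1 stood at 23.1 CPM in control cells with a Hsd11b2 UMI and 20.1 in those without, a difference of 0.20 (-1.03 to 1.36).

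Other genes of the pathway were read from lists chosen with earlier results of these data known. Of 20 other glucocorticoid response genes, 13 were counted in the epithelial gate. None was at least 2-fold higher in d/d, 2 were at least 2-fold lower, and the median ratio was -0.28 against -0.02 for all counted genes. Klf9, which encodes a zinc-finger factor, had 137 UMIs in the control and 12 in d/d, 67.0 and 17.1 CPM, a ratio of -1.97 (-2.96 to -1.12). Mt2, which encodes a metallothionein, had 394 and 47 UMIs, 193 and 67.0 CPM, a ratio of -1.52 (-1.99 to -1.08). At the other end, Rhob, which encodes a small GTPase, stood at 52.3 and 104 CPM, a ratio of 0.99 (0.54 to 1.44), so list members lay on both sides of 0.

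All 7 counted genes of the list of sodium transport and SGK1 relatives and substrates, out of 11 listed, had ratios below 0 in the epithelial gate, with a median of -0.65 against -0.02 for all counted genes; the intervals of Nedd4l, Foxo3 and Ndrg1 include 0. Scnn1a, the alpha subunit of the epithelial sodium channel, stood at 51.8 CPM in the control (106 UMIs) and 19.96 in d/d (14 UMIs), a ratio of -1.38 (-2.30 to -0.57). Sgk3, a related kinase, stood at 209 and 91.2, a ratio of -1.20 (-1.60 to -0.82). These were the 2 genes of the list past 2-fold, where 4.49% of all counted genes were at least 2-fold lower. Atp1b1, the beta subunit of the sodium pump, stood at 2693 and 1360, a ratio of -0.99 (-1.09 to -0.89). Nedd4l, the ubiquitin ligase that removes the channel, was nearest to no change at -0.06 (-0.40 to 0.28).

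Outside the Lrp2/Slc5a11 cells 4388 genes were counted, of which 3.42% were at least 2-fold lower in d/d and 4.44% at least 2-fold higher. There Klf9 had a ratio of -2.34, Mt2 -1.40, Scnn1a -1.38, Sgk3 -1.35 and Atp1b1 -0.88. In the same cells Rhob stood at 1.10 (0.53 to 1.68), Anxa1 at 0.97 (0.75 to 1.19), Cebpd, which encodes a transcription factor, at 0.77 (0.29 to 1.27), and Mt1 at -0.12 (-0.50 to 0.26). Within Lrp2/Slc5a11 cells Atp1b1 had a ratio of 0.05 (-0.18 to 0.27), Sgk3 of -0.09 (-1.11 to 0.77) and Mt2 of -0.43 (-1.58 to 0.51), with 174, 11 and 9 UMIs in d/d. Klf9 and Scnn1a each had 60 UMIs in the control and 0 in d/d there, and their intervals reach above 0. Sgk1 had ratios of -1.57 outside and -2.15 within that gate. Of the 3787 genes counted within it, 10.1% were at least 2-fold lower in d/d and 3.46% at least 2-fold higher. Whether the ratios differ between the groups of cells was not tested.

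**Figure D5:**
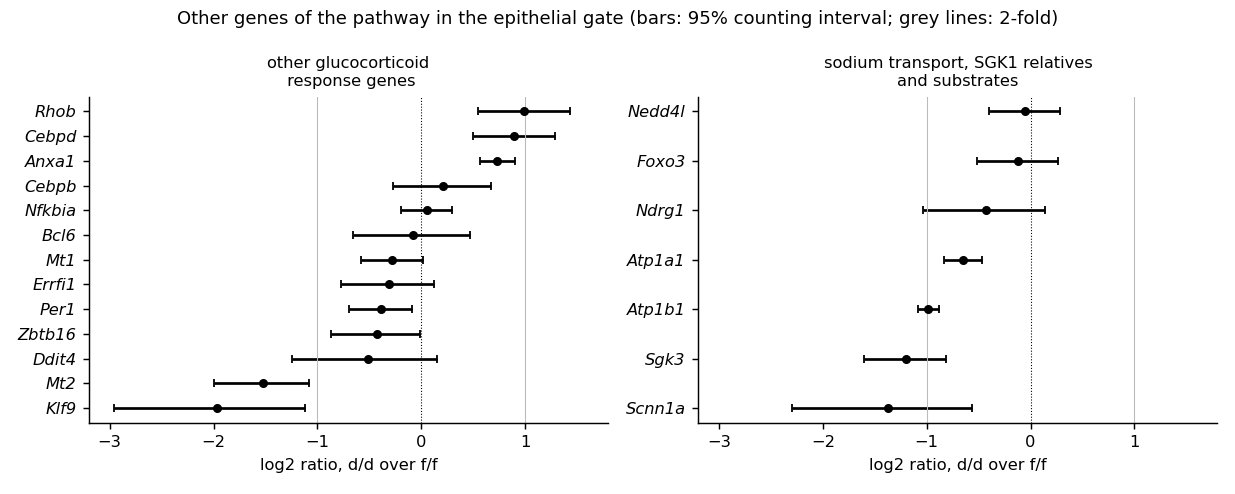
Log2 ratio of d/d over control in the epithelial gate for the 13 counted glucocorticoid response genes other than the 7 (left) and the 7 counted genes of sodium transport, SGK1 relatives and substrates (right), with 95% counting intervals; grey lines mark 2-fold. The left list spans -1.97 (Klf9) to 0.99 (Rhob), and all of the right list lies below 0, from -1.38 (Scnn1a) to -0.06 (Nedd4l), with intervals that include 0 for Nedd4l, Foxo3 and Ndrg1.

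In the epithelium, 11 of 12 receptor chaperones and coregulators were counted and none passed 2-fold, with a median of 0.03. Fkbp4, the cochaperone that promotes hormone binding, was highest at 0.59 (0.32 to 0.85), and Ncor1, a corepressor, lowest at -0.97 (-1.25 to -0.69). Of the related steroid receptors, Pgr, the progesterone receptor, stood at 400 CPM in the control (818 UMIs) and 247 in d/d (173 UMIs), a ratio of -0.70 (-0.94 to -0.46). Esr1, the oestrogen receptor, was at -0.01 (-0.15 to 0.13). Steroid supply genes were mostly too scarce: 2 of 13 were counted, G6pdx at -0.55 and Hsd17b11 at -0.01. Among immediate early and heat shock genes, which respond to tissue handling, 5 of 12 were counted, with a median of -0.38; Junb was lowest at -1.28 (-1.93 to -0.68) and Jun highest at 0.30. Their part in the Sgk1 result was not tested.

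In the stromal gate 2 genes of the same lists passed 2-fold, where 1.19% of all counted genes were at least 2-fold higher and 2.88% at least 2-fold lower. Of the 8 counted glucocorticoid response genes, 1 was at least 2-fold higher in d/d and none 2-fold lower, with a median of -0.19 against -0.09 for all counted genes. That gene was Anxa1, which encodes annexin A1, at 65.6 CPM in the control (90 UMIs) and 165.5 in d/d (44 UMIs), a ratio of 1.34 (0.78 to 1.87). Klf9 was the lowest, at 202 and 132 CPM, a ratio of -0.62 (-1.17 to -0.11). Of the 4 counted genes of sodium transport and SGK1 relatives, 1 was past 2-fold: Sgk3 stood at 118 (162 UMIs) and 33.9 (9 UMIs), a ratio of -1.80 (-2.96 to -0.84), and Foxo3 was the highest at 0.33. None of the 9 chaperones and coregulators passed 2-fold, from Ncoa3 at -0.71 to Nrip1 at 0.15, with a median of -0.38. Esr1 was at 0.35 and Pgr at -0.29. No steroid supply gene was counted there. The 4 counted immediate early and heat shock genes ranged from Jun at -0.96 to Btg2 at 0.46.

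Genes whose pattern was most like that of each member were found over 5 combinations of gate and library with at least 50 cells. With so few points many genes are close: 53 of 9677 genes had a Pearson r above 0.99 with Hsd11b2, led by Psd, Washc5 and Tspyl2, and 11 with Sgk1, led by Parn, Cyp4x1 and Ctnnb1. Fkbp5 was nearest to Suds3, Ap5b1 and Irf7, Tsc22d3 to Slc28a3, Fgfr2 and Phkg2, and Nr3c1 to Tmem81, Pepd and Acy1. Over 22 combinations of cluster and library, a choice made after seeing the data, Hsd11b2 was nearest to Arhgef40 (r = 0.957), Hand2 (0.953) and Cped1 (0.942). Genes near Sgk1 included Smox (0.932) and Gpcpd1 (0.914), and Fkbp5 was nearest to Msx1 (0.930), Sox17 (0.927) and Dlx5 (0.917). Tsc22d3 was nearest to Crip1 (0.865), Styk1 (0.815) and Dpp4 (0.784), and Nr3c1 to Klf2 (0.804), Sh3bp5 (0.800) and Gsdmd (0.790). Hsd11b2 and Sgk1 ran opposite to each other over these combinations, with an r of -0.73. The points come from 2 libraries and differ in depth, and the correlations are descriptions.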

How the data were processed

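Fixed endometrium of 1 Erbb3 f/f and 1 Erbb3 d/d library was assayed by 10x Flex. Whole-number UMI counts per gene and barcode are used as deposited; they came from Cell Ranger 9.0.0 per the file headers, and the submitters' processing notes name the builds mm10 and GRCm39 with no role. The deposited barcodes were 5783 (6819591 UMIs) for f/f and 2125 (2866862 UMIs) for d/d. No whole barcode occurred in both; the first 16 bases did for 158.

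Cells needed at least 200 genes and at most 10% mitochondrial UMIs. Scrublet called 1 f/f and 5 d/d doublets, too few to have worked; those were left out, and leaving out the top 5% of scores was tried instead. A cell joined 1 of 7 classes with the most marker UMIs, if these were at least 3 and at least 66.7% of its class-marker UMIs. Subtypes went to the larger sum of subtype markers (at least 1 UMI), with ties in neither. UMIs were summed per library and gate, giving CPM with Poisson intervals, Clopper-Pearson shares, and log2 ratios with conditional binomial intervals, all at 95%. PCR and capture effects are not covered. Genes were counted where both libraries together gave at least 100 UMIs, and 2-fold was the threshold. Clusters used Leiden (resolution 1, 2000 variable genes, 30 components, 15 neighbours) without the 7 genes. A count of 0 was given a limit of 3 UMIs. The ratio and its interval were tried on simulated Poisson counts with known folds. Those counts hold no variation between mice or cells and no carried-over RNA, so the trial bears on the computation only.

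Named genes were all 7 members, list genes past 2-fold, each list's highest and lowest member, and the 3 genes most like each member, of which 1 is not reported here; Atp1b1, Cebpd and Mt1, with Ndrg1 and Foxo3 in the epithelial gate, were added after their values were seen. The members, marker sets and lists were chosen with earlier results of these data known. Software was scanpy 1.11.5, scipy 1.17.1, scikit-learn 1.9.0, leidenalg 0.10.2 and numpy 2.4.6 in Python 3.11.15.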

Additional observations from a re-analysis of the deposited data

Results flagged for a closer look

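Sgk1 went in opposite directions in the myeloid and epithelial gates. The myeloid gate had 3 UMIs in 43 f/f cells and 8 in 12 d/d cells, a log2 ratio of 3.19 (1.13 to 5.74) against -1.96 in the epithelial gate, so the ratios differ by 5.15. The 8 UMIs lie in 25% of 12 cells, and the difference was not tested between mice. Hsd11b2 went in opposite directions between clusters: its ratio was 0.64 in cluster 8, -0.47 (-0.90 to -0.06) in cluster 2 and -1.66 (-2.98 to -0.41) in cluster 3, led by Clca3b, where it had 15 f/f and 10 d/d UMIs. Most gated cells of cluster 3 were epithelial (158 of 185). In the epithelial gate Hsd11b2 could not be told apart from carried-over RNA. The gap between clusters 8 and 2 was 1.11 (0.53 to 1.70), and that between clusters 8 and 3 was 2.30 (1.08 to 3.53). These intervals cover counting error only, and no difference between mice was tested.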

How the results depend on the processing

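Of 165 alternative values over 22 results, 155 stayed within the counting interval, or for a percent of genes within 1.5 times, and none reversed a ratio whose interval excluded 0. Sgk1 in the epithelial gate ran from -2.02 to -1.57 over 16 alternatives, with the interval below 0 in 16 of 16; the value farthest from the reported one, -1.57, came from leaving out Lrp2/Slc5a11 cells. Hsd11b2 in the stromal gate ran from -0.12 to 0.58 over 13 alternatives, 0.58 with mitochondrial UMIs at most 2%. Its ratio in the epithelial gate was -2.36 in cells with no proliferation UMI, where 1 d/d UMI was left, and Tsc22d3 was -0.89 there. Tsc22d3 in the epithelial gate had its interval below 0 in 11 of 16 alternatives and Fkbp5 in 2 of 16. These alternatives reuse largely the same UMIs. Of all genes counted in that gate, 58.8% had an interval that included 0. Sgk1 in Ltf/Clca3b cells was -0.65 with at least 2 subtype UMIs. Hsd11b2 in d/d Col6a4/Adam12 over Pth1r/Scube1 cells was 0.03 with at least 2 subtype UMIs and -0.93 by stromal clusters, which also took the control difference to -0.21 (interval includes 0) and the Pth1r/Scube1 ratio to 0.57 (interval above 0). Those stromal clusters matched the gene pairs only in part. Nr3c1 in the epithelial gate was 1.07 (interval above 0) with classes from clusters. The stromal percent of genes 2-fold higher was 4.84 at a minimum of 20 UMIs and 0.576 at 300, and 2-fold lower 7.33 and 1.23; the epithelial percent 2-fold lower was 7.23 at 20. Fewer UMIs per gene give more ratios past 2-fold by counting error, so these percents depend on the minimum. For the other moved values the cause was not tested. Nr3c1, Nr3c2 and Hsd11b1 are limited by depth, the d/d stromal gate holding 265805 UMIs in all. No paired analysis was possible because each genotype is 1 library with no shared replicate number.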
